A study of Mus musculus with 5 samples.

Results

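The 10 genes described here carry glucose through glycolysis: the glucose transporter gene Slc2a1 and the enzyme genes Hk1, Hk2, Gpi1, Pfkl, Pfkp, Aldoa, Pgk1, Pkm and Ldha. They were chosen as named genes, with earlier results of these data known. All probe sets that the platform annotation gives to each of them alone were taken. That left 9 of the 10 genes with 19 probe sets, of 12393 genes and 22626 probe sets tested. Gpi1 was not analysed here. Each gene is summarised by its brightest probe set, the one with the highest mean over all arrays.

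Expression was measured on 5 Affymetrix arrays. The tumour group holds 3 intestinal tumours of Apc1638N mice on C57Bl6/J (tumours 16, 18 and 2), and the wild-type group holds 2 samples of normal intestinal epithelium from C57Bl6/J mice (wild types 36 and 62). All animals were males of 8 months per the labels. Epithelial cells were taken from both tissues by laser capture microdissection, the lifting of selected cells from a section. Apc1638N is a truncating allele of Apc, a brake on Wnt signalling, and mice that carry it form tumours of the small intestine. Because the normal epithelium came from wild-type mice, effects of the allele and of tumour growth cannot be told apart. The labels do not say that every sample came from a separate animal, and each p-value therefore reflects only how far these samples spread, which may be technical. In samples of pooled cells like these, fewer cells of a type and less RNA per cell cannot be told apart either.

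Glycolysis turns glucose into pyruvate and makes ATP without oxygen. Slc2a1 (GLUT1) brings glucose in across the membrane, hexokinases trap it as glucose 6-phosphate, phosphofructokinase commits it to breakdown and aldolase splits the sugar. The later enzymes recover energy from the pieces, pyruvate kinase releases pyruvate, and lactate dehydrogenase converts pyruvate to lactate. Several steps have isozymes from separate genes, and tumours are known for high glucose uptake with lactate release even where oxygen is present. In the small intestine, absorptive cells also move dietary glucose from gut to blood through Slc5a1 and Slc2a2.

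Hypoxia-inducible factor and Myc are known regulators of these genes, so the promoters of 4 of them are shown with the core motif of the hypoxia response element, ACGTG, in capitals on whichever strand it lies. Slc2a1, Hk2 and Pfkl were chosen because they rose, and Ldha because it is the gene of the set with the most matches and did not rise. Each is the 250 bases before the start site, 5′ to 3′ on the gene's own strand, from RefSeq (GRCm38.p6). The positions are chr4:119108495-119108744 on the plus strand for Slc2a1, chr6:82774455-82774704 on the minus strand for Hk2, chr10:78009808-78010057 on the minus strand for Pfkl and chr7:46845554-46845803 on the plus strand for Ldha (the first of its 2 listed start sites).
Slc2a1: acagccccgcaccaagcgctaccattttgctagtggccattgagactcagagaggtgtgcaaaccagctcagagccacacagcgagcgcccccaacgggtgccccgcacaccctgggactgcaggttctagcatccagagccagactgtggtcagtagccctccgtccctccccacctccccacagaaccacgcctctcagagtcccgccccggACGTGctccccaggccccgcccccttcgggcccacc
Hk2: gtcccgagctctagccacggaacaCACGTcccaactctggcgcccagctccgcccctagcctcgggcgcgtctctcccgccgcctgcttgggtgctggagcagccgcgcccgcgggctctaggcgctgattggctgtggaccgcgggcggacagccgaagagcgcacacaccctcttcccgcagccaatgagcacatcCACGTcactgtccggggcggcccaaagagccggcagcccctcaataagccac
Pfkl: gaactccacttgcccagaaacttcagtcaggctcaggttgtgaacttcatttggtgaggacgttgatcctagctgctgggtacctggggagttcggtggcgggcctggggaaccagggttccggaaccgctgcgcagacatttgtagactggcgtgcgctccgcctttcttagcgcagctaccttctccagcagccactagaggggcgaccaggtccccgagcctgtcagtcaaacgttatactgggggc
Ldha: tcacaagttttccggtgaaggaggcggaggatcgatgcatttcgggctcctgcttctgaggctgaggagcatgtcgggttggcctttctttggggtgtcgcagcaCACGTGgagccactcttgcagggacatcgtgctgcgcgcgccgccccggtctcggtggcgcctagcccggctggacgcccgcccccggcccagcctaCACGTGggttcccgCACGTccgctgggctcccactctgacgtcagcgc

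The match in the Slc2a1 promoter began 36 bases before the start site, and those of Hk2 began 226 and 52 bases before it. Ldha had 5 matches, from 145 to 34 bases before the start, and they include both strands of 2 copies of the E-box CACGTG, a site to which Myc binds and which holds ACGTG itself. The Pfkl window held neither motif. Promoters were found for all 9 measured members, with 14 start sites, some of whose windows overlap. On either strand, ACGTG lay in the windows of 6 of these genes (Slc2a1, Hk2, Aldoa, Pgk1, Pkm and Ldha), and it lay in 16.6% of the windows of all 32851 start sites and in those of 18.5% of 27025 genes. CACGTG lay in 1 of the 9 genes, against 6.86% of all genes. Of the genes with ACGTG, Slc2a1, Hk2 and Aldoa were called higher, Pkm was called lower, and Pgk1 and Ldha did not pass. Of those without it, Hk1 and Pfkl were called higher and Pfkp did not pass. The part of the motif in these differences was not tested. A match is a description of the letters and not of factor binding.

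Slc2a1, Hk1 and Hk2, the members for glucose uptake and the first phosphorylation, were higher in tumours. All values below are log2 signals, on which a difference of 1 is a 2-fold change, and levels of different probe sets are not compared. The brightest Slc2a1 probe set read 8.89, 9.17 and 9.49 in tumours 16, 18 and 2, and 7.66 and 7.41 in wild types 36 and 62. All tumours lay above both wild types, and the smallest gap between the groups was 1.23. Slc2a1 rose from 7.54 ± 0.18 (SD, n = 2) to 9.18 ± 0.30 (SD, n = 3), which is 3.14-fold (log2 difference 1.65, SE 0.20, adjusted p = 0.0165 in limma). Its other probe sets also rose, by 1.25 (SE 0.25, adjusted p = 0.0418) and 0.44 (SE 0.08, adjusted p = 0.0355), so that the size of the rise depended on the probe set. Tumour 2 was the highest array in each of the 3 Slc2a1 probe sets.

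Hk1 and Hk2 encode hexokinases, and Hk2 is the isozyme best known from insulin-responsive tissue and tumours. The brightest Hk1 probe set read 8.93, 8.90 and 9.03 in tumours 16, 18 and 2 against 7.80 and 7.88 in wild types 36 and 62. The 3 tumours lay close together, as did the wild types, and the groups did not overlap. Hk1 rose by 1.11 (SE 0.06, adjusted p = 0.00553), or 2.16-fold. A second Hk1 probe set lay between 6.09 and 6.20 on all arrays, close to their 25th percentiles of 6.04 to 6.07, and differed by 0.05 (adjusted p = 0.443). A further probe set that is annotated to Hk1 and 5 other genes was not used. Hk2 has 1 probe set, which read 9.08, 9.48 and 8.89 in the tumours and 7.59 and 7.76 in the wild types. Here tumour 18 was the highest and tumour 2 the lowest tumour, whereas tumour 2 was the highest for Slc2a1. The groups lay 1.13 apart, and Hk2 rose 2.78-fold (log2 difference 1.48, SE 0.20, adjusted p = 0.0192).

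**Figure D1:**
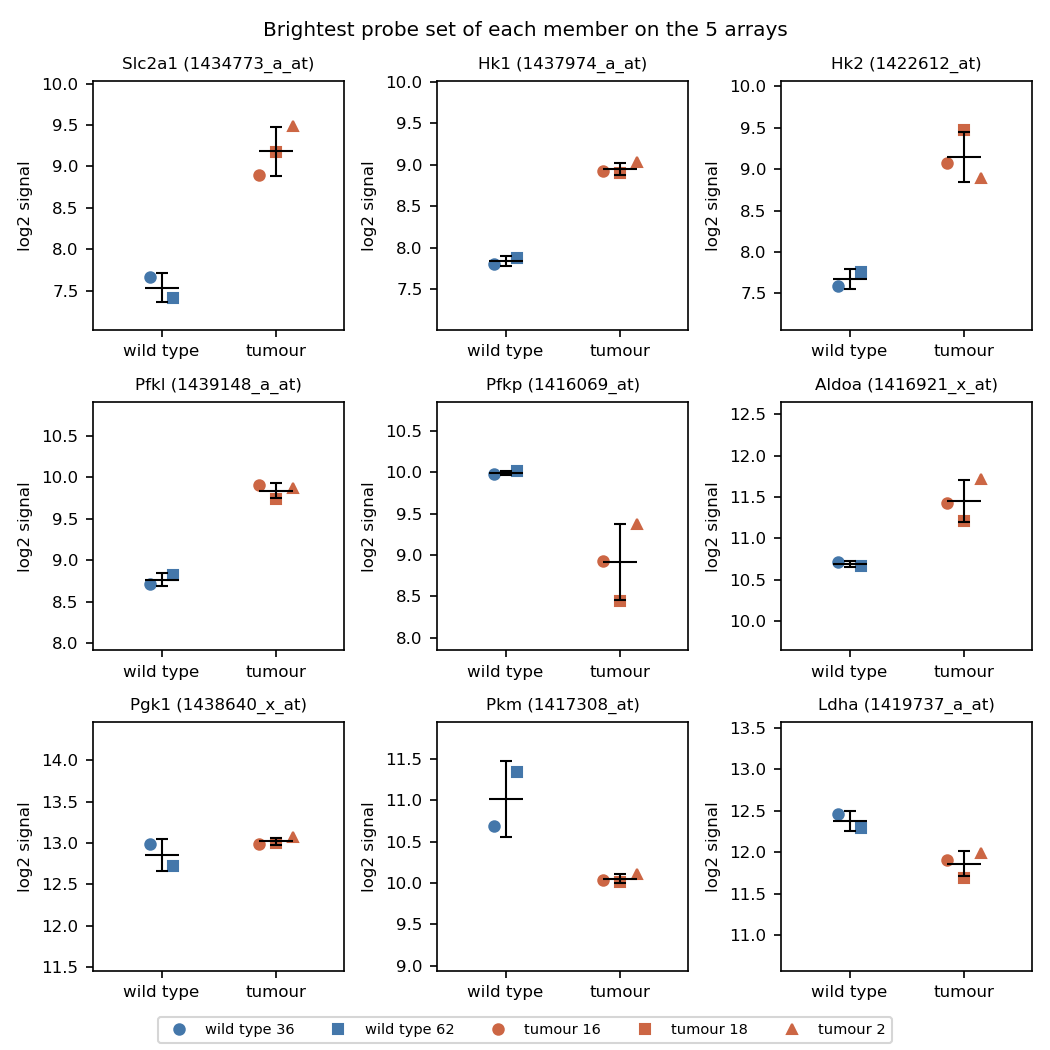
Log2 signal of the brightest probe set of each measured member on the 5 arrays, with every panel spanning 3 log2 units. Points are arrays, horizontal lines are group means and bars are SD (n = 3 tumours, n = 2 wild types). Slc2a1, Hk1, Hk2, Pfkl and Aldoa lie above wild type in all tumours, Pfkp, Pkm and Ldha lie below it, and Pgk1 overlaps.

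The phosphofructokinase isozymes had differences of opposite sign, of which that of Pfkl passed. Pfkl, the liver-type subunit, read 9.91, 9.73 and 9.87 in tumours 16, 18 and 2 and 8.71 and 8.82 in wild types 36 and 62. The groups did not overlap, and Pfkl rose 2.11-fold (log2 difference 1.07, SE 0.07, adjusted p = 0.00663). Its second probe set differed by 0.22 (SE 0.11, adjusted p = 0.238) and did not pass, although every tumour was again above both wild types. Pfkp, the platelet-type subunit, read 8.93, 8.45 and 9.38 in the tumours and 9.97 and 10.01 in the wild types. All tumours were lower, but they spread over most of a log2 unit, and the difference of -1.08 (SE 0.29) had an adjusted p of 0.0802 and did not pass. Without tumour 2, the tumour nearest to wild type, Pfkp passed with a difference of -1.30 (adjusted p = 0.0468). Its other probe set was below the 25th percentile of every array and differed by -0.07 (adjusted p = 0.361). The third isozyme gene Pfkm, the muscle type, differed by 0.09 (adjusted p = 0.327).

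Aldoa, the aldolase of most tissues, has 4 probe sets, all of them with names ending in _x_at, which marks probes that can also bind other sequences. The brightest read 11.42, 11.21 and 11.72 in tumours 16, 18 and 2 and 10.72 and 10.66 in wild types 36 and 62. Tumours lay above wild types without overlap, with tumour 2 highest and tumour 18 lowest, and the same order held in the other 3 probe sets. Aldoa rose 1.69-fold (log2 difference 0.76, SE 0.16, adjusted p = 0.0488). The other probe sets differed by 0.71 (adjusted p = 0.0255), 0.69 (0.0744) and 0.52 (0.1), so that 2 of the 4 passed.

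After the aldolase step no member rose. Pgk1, which encodes the first ATP-forming enzyme of the pathway, gave 3 probe sets that did not share a direction. The brightest read 12.99, 13.00 and 13.07 in tumours 16, 18 and 2 and 12.99 and 12.72 in wild types 36 and 62, and differed by 0.16 (SE 0.09, adjusted p = 0.314). A second differed by 0.12 (adjusted p = 0.422). The third read 11.24, 11.11 and 11.08 against 11.39 and 11.75, with all tumours lower, and differed by -0.43 (SE 0.13, adjusted p = 0.0967). None of them passed.

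Pkm encodes the pyruvate kinase of tumours and most adult tissues, with the M1 and M2 forms made by splicing. Its 1 probe set was not assigned to either form here. Pkm read 10.04, 10.01 and 10.11 in tumours 16, 18 and 2 and 10.69 and 11.34 in wild types 36 and 62. The tumours were nearly alike and the wild types were not, which placed most of the spread in the normal samples. Pkm fell by 0.96 (SE 0.21, adjusted p = 0.0494), a 1.95-fold difference, and the difference was -1.29 without wild type 36 (adjusted p = 0.0451) and -0.64 without wild type 62 (adjusted p = 0.0616). Ldha, the lactate-forming subunit, read 11.90, 11.69 and 11.98 in the tumours and 12.46 and 12.29 in the wild types. All tumours were lower, by at least 0.30, yet the difference of -0.52 (SE 0.11) just missed the threshold (adjusted p = 0.0503). It passed when p-values were adjusted over genes only (adjusted p = 0.0446).

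**Figure D2:**
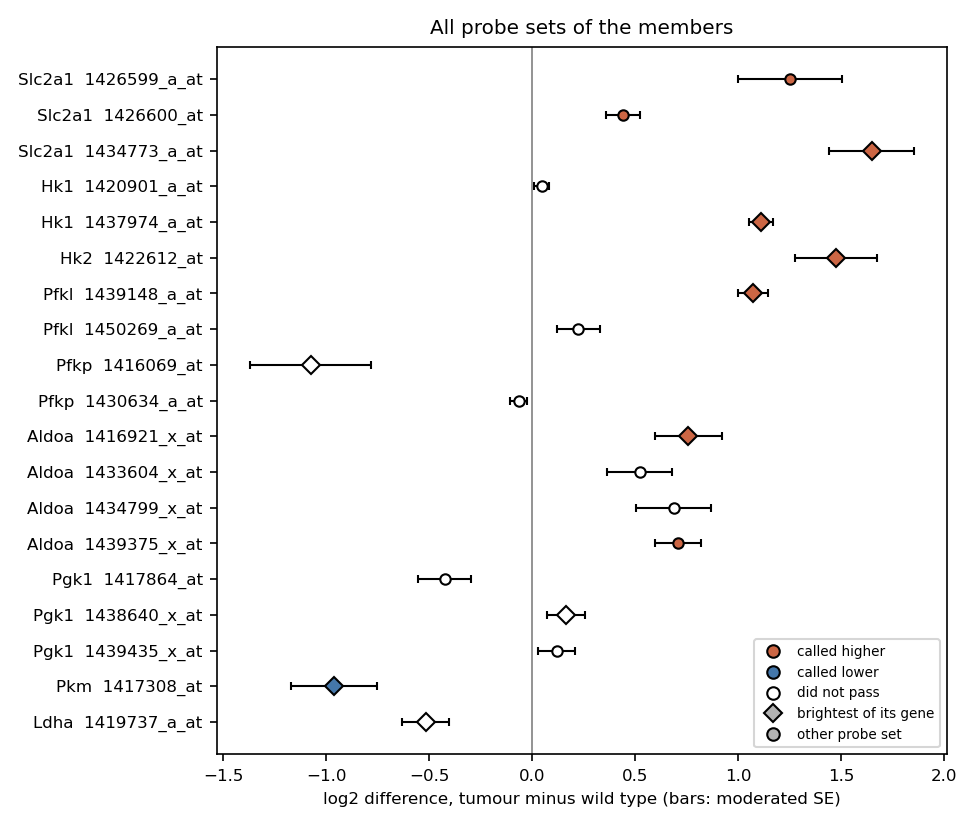
Log2 difference, tumour minus wild type, of all 19 probe sets of the members, with moderated SE as bars. Filled points passed an adjusted p of 0.05 (8 higher, 1 lower), and diamonds are the brightest probe sets. Slc2a1 reaches 1.65 and Pfkp -1.08.

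By brightest probe set, 5 of 9 members rose (Slc2a1, Hk1, Hk2, Pfkl and Aldoa), 1 fell (Pkm) and 3 did not pass (Pfkp, Pgk1 and Ldha). Over all 12393 genes 10.5% were called higher, 9.92% lower and 20.4% in either direction by the same rule. The median difference of the members was 0.76, against 0.00 over all genes. Of their 19 probe sets, 8 were called higher and 1 lower, and of all probe sets 9.58% were called higher, 8.72% lower and 18.3% in either direction. The 2 groups were free of overlap for 8 of the 9 members, and for 50.7% of all genes. Of the 6 members up to aldolase 5 rose and 0 fell, and of the 3 after it 0 rose and 1 fell. That division of the list was made after the values were seen. The members themselves were chosen with earlier results of these data known, so their shares and median beside all genes are not a test.

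The calls depended on single arrays. Members called higher numbered 3 without tumour 16, 3 without tumour 18, 5 without tumour 2, 1 without wild type 36 and 0 without wild type 62. Over all probe sets the matching counts were 485, 759, 1875, 259 and 0. Without wild type 62, where no probe set passed in limma, 6682 of all probe sets had an unadjusted p under 0.05. Hk1 lost its call only in that fit (adjusted p = 0.0595), and Pfkl lost it there (0.0613) and without wild type 36 (0.0552). Slc2a1 lost it without tumour 18 (0.0732), wild type 36 (0.0836) or wild type 62 (0.108). Hk2 lost it without tumour 16 (0.0852), wild type 36 (0.110) or wild type 62 (0.106). Aldoa kept its call only without tumour 2 (0.0456), and Pkm kept its call only without wild type 36. Many probe sets hold exactly tied values within a group, which lowers their estimated spread. Setting such probe sets aside uses the groups and shortens the list over which p-values are adjusted, so it is not an independent check. With those 6864 set aside, Slc2a1, Hk1, Hk2 and Pfkl passed in each of the 5 fits, and Aldoa lost its call without tumour 16 (0.0637), wild type 36 (0.0790) or wild type 62 (0.0992).

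Other enzymes and isozymes of glycolysis showed no common rise. Of 13 measured genes, 1 rose, 3 fell and 9 did not pass, with a median difference of -0.03. That is 30.8% called, beside 20.4% of all genes called in either direction. Hkdc1, which encodes a hexokinase-like enzyme of the gut, read 8.79, 8.48 and 9.79 in tumours 16, 18 and 2 and 11.31 and 11.47 in wild types 36 and 62. It fell by 2.37 (SE 0.43, adjusted p = 0.0343), while Hk1 and Hk2 at the same step rose. Pklr, the liver and red cell pyruvate kinase, fell by 1.19 (SE 0.16, adjusted p = 0.0196), so both pyruvate kinase genes were lower. The 2 further Pklr probe sets gave -0.69 (adjusted p = 0.0341) and -0.20 (0.163). Tpi1, which interconverts the products of aldolase, fell by 0.52 (SE 0.08, adjusted p = 0.0228). The 2 further Tpi1 probe sets gave -0.85 (adjusted p = 0.00738) and -0.37 (0.115). Eno3, an enolase best known from muscle, rose by 0.40 (SE 0.07, adjusted p = 0.0306). Pgam1 differed by -0.37 (adjusted p = 0.0645) and Ldhb, the partner subunit of Ldha, by -0.03 (adjusted p = 0.513). The other Ldhb probe sets gave 1.01 (adjusted p = 0.320), 0.19 (0.524) and 0.08 (0.486), and none passed. In the first of these all tumours lay above both wild types, which read 4.76 and 4.83. Leaving out tumour 16, tumour 18 or wild type 62 left 0 called genes in this list, and leaving out wild type 36 left 1.

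**Figure D3:**
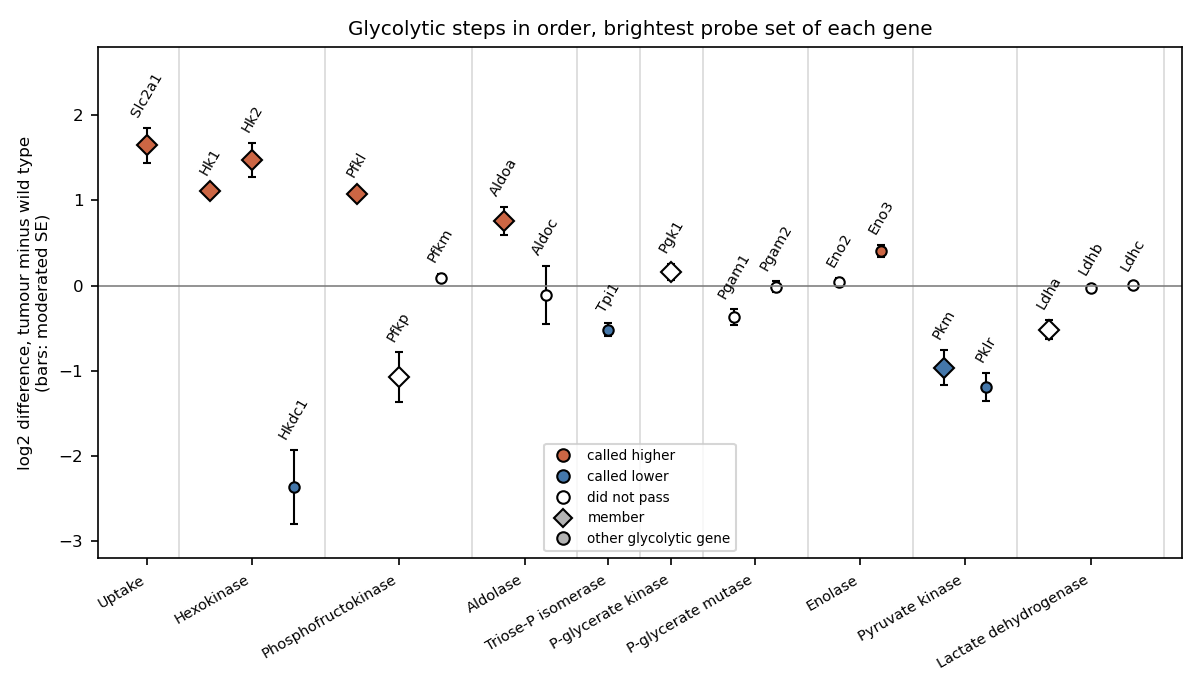
Log2 difference, tumour minus wild type, of the brightest probe set of 9 members (diamonds) and 11 other glycolytic genes (circles), in the order of the pathway, with moderated SE as bars. Filled points passed an adjusted p of 0.05. Called rises lie from uptake to aldolase and at enolase (Eno3, 0.40), and called falls at hexokinase (Hkdc1), triose phosphate isomerase (Tpi1) and pyruvate kinase (Pkm, Pklr).

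Gapdh, the dehydrogenase of the middle step, is measured by probe sets shared with pseudogenes and by control probe sets along its transcript. Shared probe sets differed by -0.05 (adjusted p = 0.675) and -0.01 (0.918). At the 3′ end the control read 13.01, 12.96 and 13.03 in tumours 16, 18 and 2 and 13.11 and 12.93 in wild types 36 and 62, and the groups overlapped. At the 5′ end it read 8.51, 8.36 and 8.20 in the tumours and 9.10 and 9.27 in the wild types, a difference of -0.83 without overlap. The 3′ minus 5′ difference was therefore 4.64 ± 0.17 (SD, n = 3) in tumours and 3.84 ± 0.24 (SD, n = 2) in wild types. For beta-actin it was 4.15 ± 0.13 and 2.91 ± 0.57. Where along its transcript each member probe set lies was not analysed here. This difference between transcript ends moved with the groups, and its part in the members' differences was not tested.

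**Figure D4:**
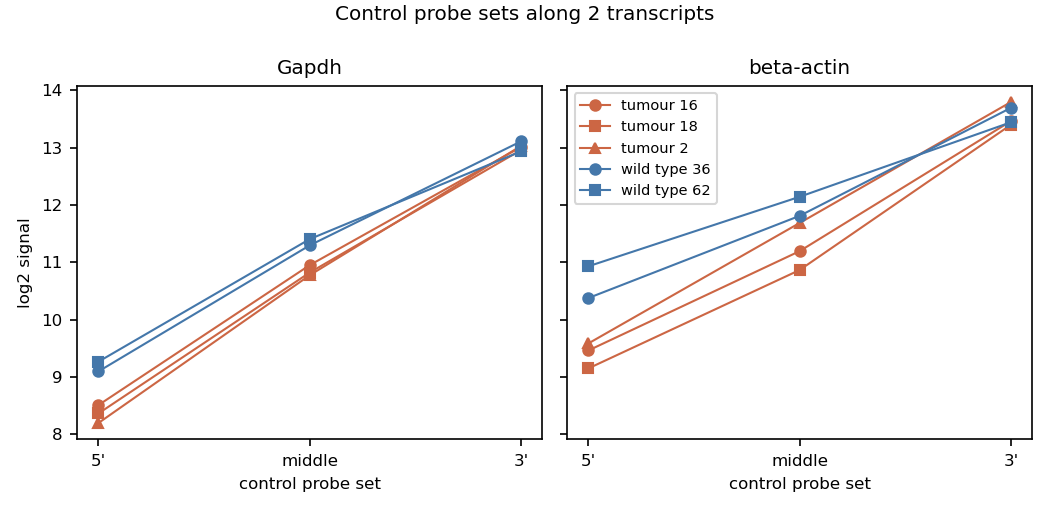
Log2 signal of the control probe sets at the 5′ end, the middle and the 3′ end of Gapdh and beta-actin, with a line for each array. At the 3′ ends the 5 arrays lie together, and at the 5′ ends both wild types lie above all tumours (9.10 and 9.27 against 8.20 to 8.51 for Gapdh).

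The arrays carried epithelial signal. All 8 epithelial markers were measured, none was dim throughout, and the list mean was 11.26 to 11.71 in tumours and 11.35 to 11.56 in wild types. Krt18 and Krt19 rose and Vil1, a brush border protein gene, fell. Fibroblast and matrix genes had list means of 7.70 to 9.20 in tumours and 6.73 to 7.14 in wild types, with 1 of 8 called higher (Dcn). Their median difference was 1.71, and no gene of the list had a lower mean in tumours. Col1a2 and Col3a1 each differed by 2.32, Col1a1 by 1.80 and Pdgfrb by 1.62. All tumours lay above both wild types for these genes, but they did not pass (adjusted p from 0.0982 to 0.219 in limma). Tumour 18 was highest and tumour 2 lowest in that list, an order shared by Hk2 but not by Slc2a1 or Aldoa. Smooth muscle had 1 of 6 called higher (Acta2), leukocytes 2 of 11 called lower (Ptprc and Cd3g), and red blood cells (3 measured) and endothelium (6) had 0 called. List means of those 4 cell types lay between 6.41 and 7.19 on every array. Leukocyte markers went in both directions, so their list mean hides changes. Ptprc fell by 1.94 and Cd3g by 1.41. Lyz2 differed by 1.67 (SE 0.39, adjusted p = 0.0569) and S100a8 by 1.32 (SE 0.50, adjusted p = 0.158). Both were above wild type in all tumours but did not pass. The part of these markers in the members' differences was not tested.

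The lists of other sugar transporters and of gluconeogenesis and fructose use held more falls than rises. Over all genes, 9.92% were called lower and 10.5% higher. Of 9 other glucose and fructose transporter genes, 4 fell and 0 rose, with a median difference of -1.35. Slc2a2, the basolateral exporter of absorptive cells, fell by 5.41 (SE 0.35), with tumours 16 and 2 below their 25th percentiles, so the size is uncertain. Slc5a1, the sodium-coupled importer, fell by 4.38 (SE 0.17), while Slc2a1 rose. The fructose transporter Slc2a5 fell by 2.32 (SE 0.35), and the urate transporter gene Slc2a9 fell by 1.35 (SE 0.07). Slc2a3, another transporter linked to tumours, differed by -0.04 (adjusted p = 0.806). Of 8 genes of gluconeogenesis and fructose use, 5 fell and 0 rose (median -1.78). They include Fbp1, which reverses the phosphofructokinase step (-3.63, SE 0.24), Khk, the fructose kinase (-3.26, SE 0.08), Fbp2 (-1.85, SE 0.24) and the glucose 6-phosphate transporter gene Slc37a4 (-1.71, SE 0.05). The adjusted p-values of these 8 called transporter, gluconeogenesis and fructose genes lay between 0.00442 and 0.0233 in limma.

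The same held for pyruvate oxidation. Among 13 genes for entry of pyruvate into mitochondria and export of lactate, 7 fell and 0 rose (median -0.74). Of all genes, 9.92% were called lower. Dld, a subunit shared by the pyruvate and oxoglutarate dehydrogenases, fell by 1.54 (SE 0.19). Its tumour values of 5.36 to 5.54 were under the 25th percentile in all arrays, so the size is uncertain. The mitochondrial pyruvate carrier gene Mpc1 fell by 1.31 (SE 0.22), the dehydrogenase subunit gene Pdha1 by 0.87 (SE 0.09) and Pdk2, whose product inhibits that enzyme, by 0.97 (SE 0.04). Pdk1, another such kinase, read 9.09, 9.02 and 8.08 in tumours 16, 18 and 2 and 8.32 and 8.55 in wild types, with a difference of 0.29 (adjusted p = 0.623). Slc16a1, a lactate carrier, fell by 0.79 (SE 0.17) and its chaperone Bsg by 0.66 (SE 0.09), while Slc16a3, the carrier known for lactate export, differed by 0.12 (adjusted p = 0.341).  In the tricarboxylic acid cycle 11 of 17 genes fell and 0 rose (median -1.08), led by Ogdh (-2.01, SE 0.14), Sdhd (-1.71, SE 0.11), Dlst (-1.68, SE 0.24) and Sdhb (-1.46, SE 0.09). The second probe sets of Dlst and Pdha1 differed by -0.18 (adjusted p = 0.129) and -0.34 (0.0988) and did not pass. The called genes named in this paragraph had adjusted p-values between 0.00467 and 0.0470 in limma. These counts depended on single arrays. Without tumour 16, 18 or 2 the cycle kept 3, 4 and 8 called falls, and the pyruvate list 1, 3 and 4. Fits without either wild type, which leave 1 array in that group, also called fewer falls in both lists.

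**Figure D5:**
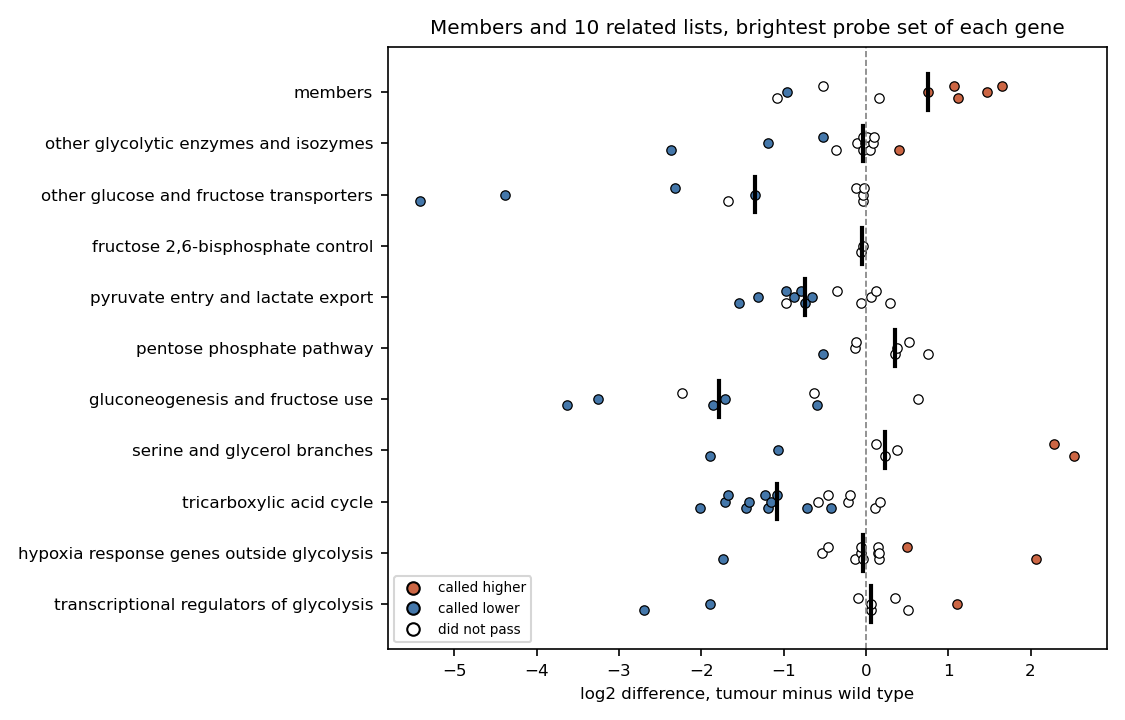
Log2 difference, tumour minus wild type, of the brightest probe set of each gene in the members' list and 10 related lists. Filled circles passed an adjusted p of 0.05, black bars are list medians and the dashed line is the median of all genes. The members have a median of 0.76, and the lists of gluconeogenesis, other transporters and the tricarboxylic acid cycle have medians of -1.78, -1.35 and -1.08.

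Branches that take carbon from glycolysis differed among themselves. In the serine and glycerol list 2 of 7 genes rose and 2 fell, where 20.4% of all genes were called in either direction. Psat1 and Shmt2, of serine and one-carbon synthesis, rose by 2.53 (SE 0.39, adjusted p = 0.0239) and 2.28 (SE 0.26, adjusted p = 0.0137). The second Psat1 probe set gave 1.14 (adjusted p = 0.0324), and the other Shmt2 probe sets gave only 0.26 to 0.36. Phgdh, the first enzyme gene of serine synthesis, did not pass in its brightest probe set (0.23, adjusted p = 0.186), but its 3 other probe sets rose, by 2.74 (adjusted p = 0.00663), 2.30 (0.0116) and 0.93 (0.0258). Gpd1 and Gpd2, of glycerol 3-phosphate metabolism, fell by 1.89 (SE 0.14, adjusted p = 0.00738) and 1.06 (SE 0.22, adjusted p = 0.0437). The other Gpd1 probe sets gave -1.16 (adjusted p = 0.0205), -0.46 (0.0628) and -0.07 (0.735). In the pentose phosphate pathway 1 of 7 genes fell and 0 rose, with a median difference of 0.35. That is 14.3% called, beside the same 20.4% of all genes. Genes called higher numbered 3 of 7 with quantile normalization and 2 of 6 without tied probe sets. H6pd, which makes NADPH in the endoplasmic reticulum, differed by 0.76 (SE 0.18, adjusted p = 0.0564) without overlap. The gene that fell was Rpe (-0.52, SE 0.03, adjusted p = 0.00641), whose other probe sets differed by -0.14 (adjusted p = 0.394) and by less than 0.01 in size. Tkt, the transketolase, differed by 0.52 (adjusted p = 0.0975) with every tumour above both wild types, and its other probe set by -0.04 (adjusted p = 0.826).

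Of 8 measured regulators of the pathway 1 rose and 2 fell, where 20.4% of all genes were called in either direction. Myc read 7.60, 7.66 and 7.48 in tumours 16, 18 and 2 and 6.25 and 6.70 in wild types 36 and 62, and rose by 1.11 (SE 0.15, adjusted p = 0.0204). Hif1a, the oxygen-regulated subunit, had 4 probe sets, which differed by 0.58, 0.57, 0.51 and 0.06, and none passed (adjusted p from 0.0663 to 0.389). Mlxipl, the glucose-sensing factor ChREBP, fell by 1.89 (SE 0.12, adjusted p = 0.00641), and the mitochondrial coactivator gene Ppargc1a fell by 2.70 (SE 0.33, adjusted p = 0.0158). Of 13 hypoxia response genes outside glycolysis 2 rose and 1 fell, a share near that of all genes, and their median difference was -0.04. Ddit4, a stress-induced inhibitor of mTOR signalling, rose by 2.07 (SE 0.23) and the collagen hydroxylase gene P4ha2 by 0.50 (SE 0.10). Mxi1, a Myc antagonist, fell by 1.74 (SE 0.13), but its second probe set differed by -0.20 (adjusted p = 0.0840) and did not pass. Car9, a hallmark target of hypoxia, differed by -0.04 (adjusted p = 0.864) and Vegfa by 0.15 (adjusted p = 0.452). The second Vegfa probe set differed by -0.48 (adjusted p = 0.252), with all tumours lower. The fructose 2,6-bisphosphate enzymes Pfkfb2 and Pfkfb3, which set the level of the main activator of phosphofructokinase, differed by -0.06 (adjusted p = 0.422) and -0.04 (0.733) in their brightest probe sets. A second Pfkfb3 probe set was lower, by -0.57 (SE 0.12, adjusted p = 0.0451). Its tumour values of 5.64 to 5.89 were under the 25th percentile in all arrays, so the size is uncertain. The brightest Pfkfb3 probe set, at 5.88 to 6.08, also lay close to that percentile.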

How the data were processed

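RNA of 5 samples was hybridised to Affymetrix arrays. Log2 values of 22690 probe sets were deposited by the authors as 1 table. Per the submitters' processing notes they used affy, an R package, and the methods of background correction, normalization and summary are not given in the sources used here. Array medians ran from 6.81 to 6.87, so values were used as deposited. The number of arrays limits the precision, and no presence calls were used.

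After 64 control probe sets were set aside, limma 3.58.1 in R 4.3.3 (lmFit, eBayes) was fitted to 22626 probe sets with 1 term, the group. Its two-sided p-values were adjusted over all of them by Benjamini-Hochberg, with a threshold of 0.05. "Called" and "passed" mean below that threshold. The 3 residual degrees of freedom were joined by a prior of 1.19. An exact permutation test of 3 against 2 arrays cannot go below p = 0.1. Differences are tumour minus wild type, SE is limma's, and folds are the difference taken back from log2. Names came from the platform annotation, with 1 symbol for 20380 probe sets (several for 691, which name no gene), and 0 symbols changed when compared with RefSeq by Entrez identifier.

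Members and lists were chosen with earlier results of these data known. Named genes were every member, Gapdh, Myc and Hif1a, and the 4 called genes of largest change in each list plus the largest against its majority, or the 2 brightest where none was called. Pfkm, Pgam1, Ldhb, Tkt, Slc2a3, Pdk1, Slc16a1, Slc16a3, Bsg, Phgdh, H6pd, Car9 and Vegfa were named after their values were seen. The fit was tested on simulated data. Protein sequences were not used here.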

Additional observations from a re-analysis of the deposited data

How the results depend on the processing

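Setting aside names ending in _s_at, _x_at or _a_at left 3 members with their brightest probe set, 1 called higher and 0 lower. Member probe sets called were then 2 higher and 0 lower, and genes of the 9 other lists 2 and 21. Among those set aside were the brightest probe sets of Slc2a1, Hk1, Pfkl and Ldha, which end in _a_at. That ending marks several transcripts of the same gene, so this setting does not single out probe sets shared between genes. The 5 rises of members stood under every other setting with all arrays, except that array weights gave 4 genes and 5 probe sets and a 2-fold minimum 4 genes. Members called lower, 1 as reported, numbered 2 with median centring, without probe sets below the 40th percentile or fitted over genes only (Ldha was added), 3 without tied probe sets or when a gene's probe sets were averaged, and 0 with a 2-fold minimum. Probe sets called lower were 2 with median centring, 2 with the 40th percentile filter and 3 without ties. With quantile normalization the 1 fall was Ldha, not Pkm (adjusted p = 0.0631). Without tied probe sets and tumour 16, 18 or 2, or wild type 36 or 62, members called lower were 0, 2, 3, 1 and 1, their probe sets 0, 2, 3, 2 and 1 lower and 7, 9, 9, 5 and 4 higher.

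Other glycolytic genes called higher were 0 without tied probe sets and any array but tumour 2, and 0 with a 2-fold minimum. In the other lists, 5 genes were called higher as reported, 10 with quantile normalization, 10 without tied probe sets and 8 without these and tumour 2.

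Leaving out 1 array gave 0 to 5 members higher and 0 to 1 lower, 0 to 7 and 0 to 1 member probe sets, 0 to 1 and 0 to 2 other glycolytic genes, and 0 to 4 and 0 to 26 genes of the other lists. The difference of 1 Pgk1 probe set ran from -0.011 without wild type 62 to 0.25 without wild type 36. The cause of these changes was not tested. Signals near the 25th percentile limit what dim probe sets can show. No paired analysis was possible because the groups share no replicate numbers.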
